A study of Mus musculus with 32 samples.

Results

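The homeobox genes Dlx1, Dlx2, Dlx5 and Dlx6 of the distal-less family and 3 genes needed to make or store the inhibitory transmitter GABA (Gad1, Gad2 and Slc32a1) were followed through single cells of mouse embryos, 7 genes chosen by name of the 23154 in every expression table. All 7 were described in the neuronal cells (NC) of forebrain and hindbrain, 369 of the 1916 cells sequenced, and the Dlx genes also in the epithelial (Epi) and mesenchymal (Mes) cells of skin, lung, liver and intestine. The embryos were C57BL/6J, with no treatment or altered gene given in the labels, and were taken at embryonic day 9.5 (E9.5), E10.5 or E11.5. E9.5 embryo 2 is labelled female and all other samples male. Brain NC cells came from embryos 1 and 2 of each day, and skin, lung, liver and intestine cells from up to 7 embryos. At E9.5 the labels give 1 sample per organ for embryos 1 and 2. E9.5 embryo 3 has 1 sample of lung and liver together and 1 of skin, intestine and somite together. At E10.5 and E11.5 both embryos of a day share 1 sample per organ and are told apart by the cell names.

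Dlx proteins are transcription factors. In the ventral forebrain Dlx1 and Dlx2 are switched on in dividing progenitors and act before Dlx5 and Dlx6, and together they are known for directing the birth and migration of GABAergic neurons. Gad1 and Gad2 encode the enzymes that make GABA from glutamate, and Slc32a1 encodes the vesicular transporter that loads it into synaptic vesicles. Outside the brain, Dlx genes are known from the branchial arches, where they pattern the jaw, and from surface ectoderm, limb buds and bone-forming mesenchyme.

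The Dlx genes lie in 2 convergent pairs. On GRCm38 with GENCODE M21 genes, Dlx1 occupies chr2:71528113-71533981 on the plus strand and Dlx2 chr2:71543408-71546754 on the minus strand, with 9426 bases between them. Dlx6 occupies chr6:6863334-6868568 on the plus strand and Dlx5 chr6:6877805-6882085 on the minus strand, with 9236 bases between them. Gad2 (chr2:22622205-22693874), Gad1 (chr2:70553072-70602014) and Slc32a1 (chr2:158610767-158615748) lie apart from each other on the plus strand of the same chromosome as Dlx1 and Dlx2. Dlx1as, annotated as antisense, overlaps all 5869 bases of Dlx1 and shares 335 exon bases with it, and Dlx6os2 shares 104 exon bases with Dlx6. Whether reads were counted by strand is not given in the sources used here, so reads of these partners cannot be told apart from those of Dlx1 and Dlx6 over the shared bases.

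The sequence before the RefSeq start site, without bases that GENCODE annotates as exon, is printed for Dlx2 and for both glutamate decarboxylase genes, because these were members found together in the same forebrain cells. It was taken from RefSeq (GRCm38.p6), which held a promoter entry for 5 of the 7 members. The Gad1 start site lies inside the longer GENCODE gene, so its stretch is within that gene and outside its exons. Capitals mark CANNTG, searched on both strands, a core bound by many basic helix-loop-helix factors. Which of these factors bind the marked sites was not tested. The Dlx2 stretch is chr2:71546755-71547004 on the minus strand, the Gad1 stretch chr2:70561879-70562041 and the Gad2 stretch chr2:22622077-22622204, both on the plus strand.
Dlx2: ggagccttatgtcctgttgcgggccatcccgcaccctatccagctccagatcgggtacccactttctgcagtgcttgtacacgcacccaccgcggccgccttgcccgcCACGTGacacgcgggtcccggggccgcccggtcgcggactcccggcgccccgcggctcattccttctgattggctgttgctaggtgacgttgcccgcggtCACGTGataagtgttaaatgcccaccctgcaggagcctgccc
Gad1: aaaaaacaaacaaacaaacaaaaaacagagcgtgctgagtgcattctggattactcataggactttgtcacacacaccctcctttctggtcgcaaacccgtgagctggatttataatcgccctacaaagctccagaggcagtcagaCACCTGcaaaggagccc
Gad2: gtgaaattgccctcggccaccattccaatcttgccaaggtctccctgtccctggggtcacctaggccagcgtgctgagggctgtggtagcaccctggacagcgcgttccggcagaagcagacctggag
CANNTG stood at 2 places in the Dlx2 stretch, at 1 in the Gad1 stretch and at 0 in the shorter Gad2 stretch. Over the full 250 bases before the start site it matched 0 times in Dlx1, 2 times in Dlx2, once in Gad1, once in Gad2 and 2 times in Slc32a1, and 66.2% of 32851 promoters of that length held it. GENCODE annotates all 250 bases of the Dlx1 window as exon, and 87 and 122 bases of the Gad1 and Gad2 windows. TAATTA, a core bound by many homeodomain proteins, was in none of these 5 windows and in 4.84% of all of them.

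Each value is the number of unique molecular identifiers (UMIs, which count captured transcripts) of a gene per 1000000 UMIs of its cell, named TPM by the authors. Levels were set on log2(TPM/10 + 1), each embryo gave 1 mean over its cells, and a cell was said to express a gene from a value of 1 upwards, which is 10 TPM. Median depth was 95277 to 281378 UMIs per cell in brain NC cells of E10.5, E11.5 and E9.5 embryo 1, and 1115880 (forebrain) and 1075130 (hindbrain) in E9.5 embryo 2. Both E9.5 brain embryos were sequenced on HiSeq 2500 and all later ones on HiSeq 4000, so in brain cells the platform and the step from E9.5 to later days cannot be told apart. Lhx2, a LIM-homeobox gene of the early forebrain, had a mean level of 2.44 to 5.38 in the 6 forebrain embryos, all above the 0.17 to 2.33 of the hindbrain ones. The cells labelled hindbrain held En1 and En2, genes of the midbrain-hindbrain border, at 1.13 to 2.75 and 1.21 to 1.84 in the E10.5 and E11.5 embryos, while Hoxa2 and Hoxb2, defining genes of the posterior hindbrain, were at most 0.11 and 0.01. At E9.5, En1 and En2 were at 0 in hindbrain embryo 1 and at 1.20 and 0.83 in embryo 2. Otx2, normally a gene of forebrain and midbrain, reached 4.80 in cells labelled hindbrain (at E9.5, where the tissue label is metencephalon). It was also at 3.31 in hindbrain E10.5 embryo 2. Cells labelled hindbrain thus matched their label only in part. The E11.5 forebrain embryos stood apart from each other in most members, and values are given with and without each.

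Dlx1, Dlx2 and Dlx5 were at or near 0 in forebrain NC cells at E9.5 and higher in every embryo of E10.5 and E11.5, Dlx6 was low in all but 1 embryo, and all 4 were at or near 0 in hindbrain NC cells on every day. The mean level of Dlx2 was 0.10 and 0.23 in E9.5 embryos 1 and 2, 3.31 and 2.40 at E10.5, and 1.53 and 4.28 at E11.5. In hindbrain NC cells it was 0.04 and 0.01 at E9.5, 0 and 0 at E10.5, and 0.13 and 0 at E11.5, so that no hindbrain embryo reached a forebrain embryo of the later days. Dlx1, its neighbour on chromosome 2, was at 0 and 0.003 in forebrain NC cells at E9.5, 1.46 and 1.72 at E10.5, and 1.06 and 3.29 at E11.5.

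Dlx5 had forebrain levels of 0.07 and 0 at E9.5, 1.37 and 1.94 at E10.5, and 0.89 and 3.12 at E11.5. Dlx6 was at 0 and 0 at E9.5, 0.49 and 0.47 at E10.5, and 0.39 and 1.61 at E11.5. In hindbrain NC cells the highest embryo means of Dlx1, Dlx5 and Dlx6 were 0.003, 0.09 and 0.05. For each of the 4, every E10.5 and E11.5 forebrain embryo was above both E9.5 embryos, and embryo 2 of E11.5 was far above embryo 1. As pooled counts, Dlx2 gave 1.69 and 3.28 TPM over the cells of the E9.5 embryos and 39.8 and 502 TPM over those of the E11.5 embryos.

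**Figure D1:**
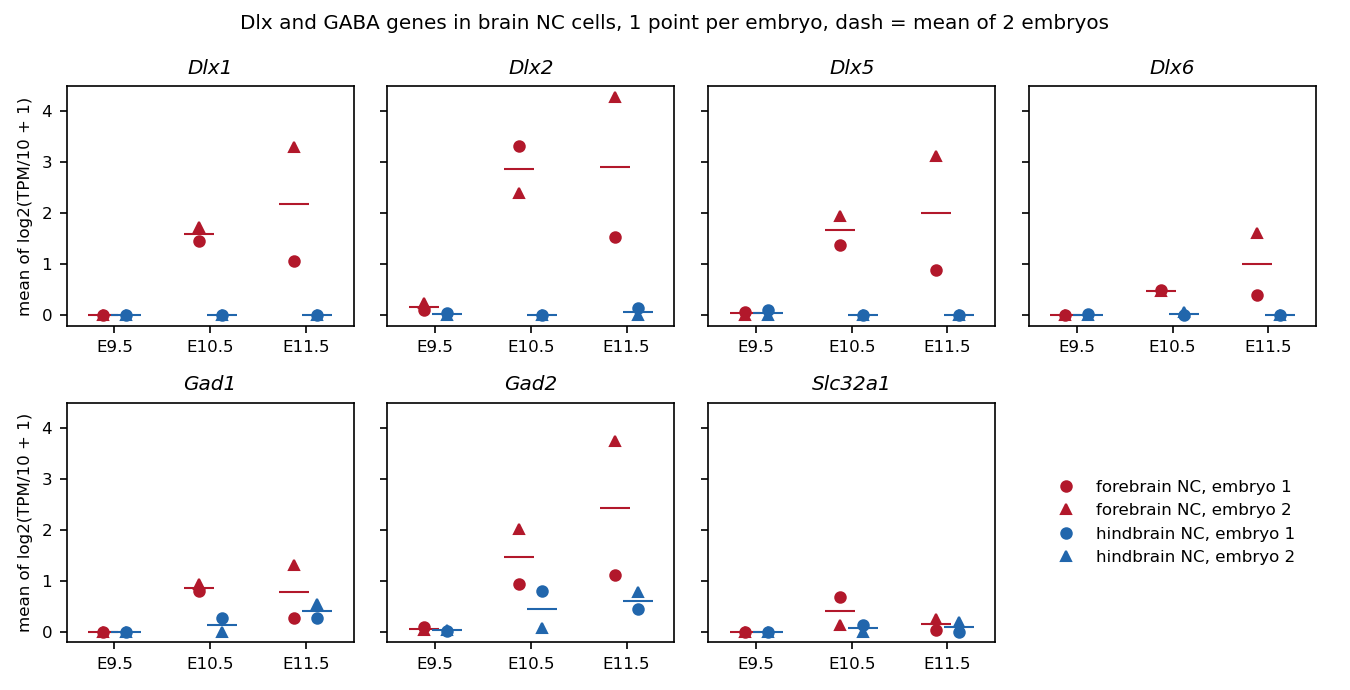
Mean level of each gene in brain NC cells, on log2(TPM/10 + 1), by embryonic day (horizontal axis), with 1 point per embryo (circles embryo 1, triangles embryo 2), red for forebrain and blue for hindbrain, and a dash at the mean of both embryos. The red Dlx points leave 0 at E10.5 and lie far apart at E11.5 (Dlx2 1.53 and 4.28), whereas the blue Dlx points stay at or below 0.13 and the blue Gad2 points reach 0.80.

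The step from E9.5 to E11.5 in forebrain NC cells was tested with limma on the embryo means, with Benjamini-Hochberg adjustment over 14200 genes and a call at adjusted p under 0.05 and a difference of at least 1 on log2(TPM/10 + 1), a scale that understates the change of low genes. Of the 7 members, 4 were called higher, against 1.75% of all genes tested, while 10.7% of all genes and no member were called lower. The difference was 2.74 for Dlx2 (SE 0.62, limma adjusted p = 0.0103), 2.17 for Dlx1 (SE 0.48, adjusted p = 0.00917), 1.97 for Dlx5 (SE 0.49, adjusted p = 0.0163) and 2.37 for Gad2 (SE 0.62, adjusted p = 0.0213). Dlx6 passed the limma test at adjusted p = 0.0191 with a difference of 0.997, just under the size asked, and Gad1 at adjusted p = 0.0469 with 0.78. Slc32a1 did not pass the limma test (0.14, SE 0.14, adjusted p = 0.557). Each SE pools the spread of all forebrain and hindbrain groups. For the Dlx genes most of these groups lie near 0, so the SE understates the spread between the E11.5 forebrain embryos. The count of 4 rested on few embryos: 2 members were called without E11.5 embryo 2, 6 without E11.5 embryo 1, and 0 without either E9.5 embryo. After thinning each cell to 100000 UMIs, Gad2 was not called (2.32, limma adjusted p = 0.0526) and Dlx6 was (1.02, limma adjusted p = 0.0186).

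Over the 3 days together, 3 of the 7 members were called higher in forebrain than in hindbrain NC cells, against 0.232% of all genes. These were Dlx2 (1.94, SE 0.36, limma adjusted p = 0.0143), Dlx1 (1.26, SE 0.28, limma adjusted p = 0.0380) and Dlx5 (1.22, SE 0.28, limma adjusted p = 0.0472). Dlx6 (0.48), Gad1 (0.37), Gad2 (0.96) and Slc32a1 (0.13) did not pass, with limma adjusted p from 0.138 to 0.519. None of the 3 was called without E10.5 embryo 1 or without either E9.5 embryo, and only 1 without E10.5 embryo 2 or E11.5 embryo 2.

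At E11.5 alone no member was called between the organs (0.0423% of genes were called higher in forebrain), although the 4 Dlx genes had unadjusted limma p from 0.000537 to 0.00193. The Dlx2 difference there was 2.84 (SE 0.62, limma adjusted p = 0.0967) and without E11.5 embryo 1 it was 4.28, with 4 members called, where each organ has 1 embryo and the spread comes from the other groups. In hindbrain NC cells no member was called between E9.5 and E11.5 (0.324% of genes were called higher). The test of whether the step from E9.5 to E11.5 differed between the organs called no member (0.0282% of genes were called higher), with a Dlx2 difference of 2.70 (SE 0.88, limma adjusted p = 0.474) and the lowest unadjusted limma p, 0.00709, for Dlx1. Without E11.5 embryo 1, Dlx1 and Dlx6, 2 members, were called in it, on the same footing.

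The GABA genes appeared in both brain regions. Gad2, which encodes the GAD65 enzyme of synaptic endings, was at 0.08 and 0.02 in forebrain NC cells at E9.5, 0.93 and 2.01 at E10.5, and 1.11 and 3.73 at E11.5. In hindbrain NC cells it was at 0.01 and 0.04 at E9.5, 0.80 and 0.06 at E10.5, and 0.44 and 0.77 at E11.5. Both forebrain values were above both hindbrain values at E10.5 and at E11.5, whereas at E9.5 all 4 were near 0. Shares of cells with 6 or more UMIs did not keep this order. At E10.5 they were 1 of 9 and 8 of 27 in forebrain, against 5 of 30 and 0 of 28 in hindbrain. At E11.5 they were 2 of 30 and 16 of 30, against 2 of 27 and 5 of 25. The mean of 1.11 in E11.5 forebrain embryo 1 included 17 cells with only 1 to 5 UMIs.

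Gad1, which encodes the GAD67 enzyme of the whole cell body, was at 0 in the forebrain and hindbrain embryos of E9.5. Its forebrain levels were 0.79 and 0.93 at E10.5 and 0.26 and 1.30 at E11.5, against 0.27 and 0 and then 0.26 and 0.54 in hindbrain, so that the organs overlapped at E11.5. Slc32a1 was at 0 in every E9.5 embryo, at 0.68 and 0.12 in the E10.5 forebrain embryos, 0.04 and 0.25 in the E11.5 ones, and at most 0.20 in hindbrain. It had 6 or more UMIs in only 4 of 96 forebrain NC cells of E10.5 and E11.5, so a difference between the regions was not detectable at this depth.

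Cells could be sorted by how many UMIs they held. E11.5 forebrain embryo 1 had 1 to 5 UMIs of Dlx2 in 18 of its 30 cells and 6 or more in 5. Embryo 2 had 1 to 5 in 5 cells and 6 or more in 21, with a median of 75 UMIs in those 21. The same split held for Gad2, with 17 cells at 1 to 5 UMIs and 2 at 6 or more in embryo 1, and 11 and 16 in embryo 2.

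Low counts were also found in cells of another type. The 34 hematopoietic cells (HC) of the brain samples, which should lack all 7 genes, held 1 to 3 UMIs of Dlx2 in 11 cells, of Gad2 in 13, of Dlx5 in 10 and of Dlx1 and Gad1 in 9 each. They held 6 or more of any member in 0 cells. This allows a share of up to about 8.82%, an approximate limit that covers counting error only and takes cells as independent. The low counts were mostly in the 17 HC cells of the forebrain samples, which held Dlx2 in 9 cells, Dlx5 in 10, Gad1 in 8 and Gad2 in 9, against 2, 0, 1 and 4 of the 17 of the hindbrain samples. At the looser limit, 1 of the 34 expressed 2 or more Dlx members. The forebrain HC cells had a median depth of 187034 UMIs per cell, above the 110478 and 158194 of the E11.5 forebrain NC cells. Low counts in NC cells thus cannot be told apart here from those seen in HC cells, and whether they are expression of the cell itself was not tested. Cells with 6 or more UMIs are described below. That limit was chosen after the values were seen, so its 0 HC cells are no test of it. When values of at most 5 UMIs were set to 0, no member was called between E9.5 and E11.5 in forebrain, and the Dlx2 difference was 2.24 (limma adjusted p = 0.102).

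**Figure D2:**
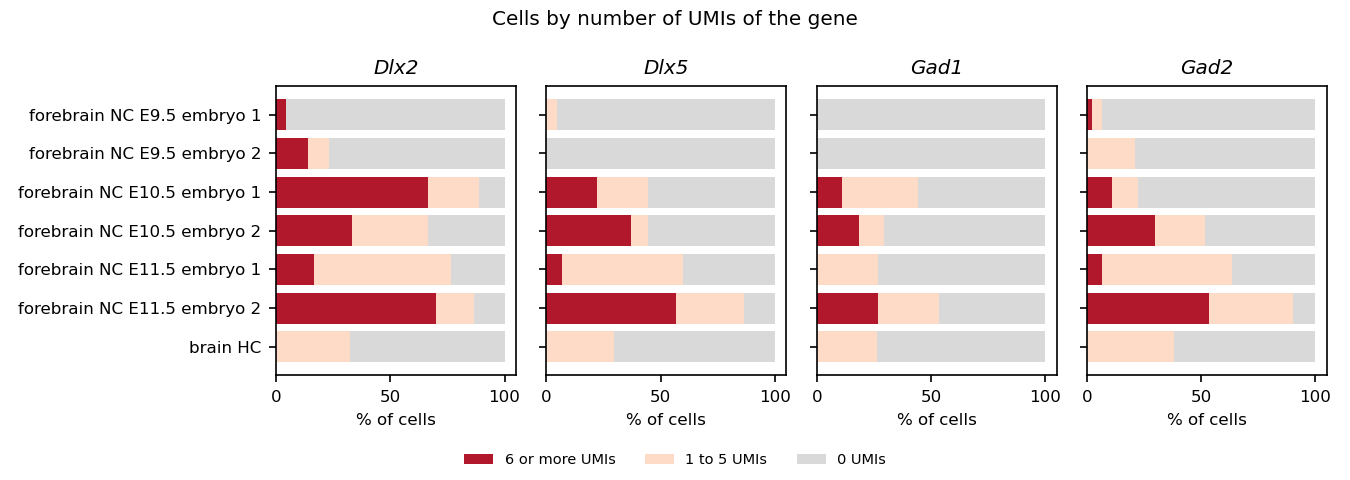
Share of cells (horizontal axis, %) with 0, 1 to 5, or 6 or more UMIs of Dlx2, Dlx5, Gad1 and Gad2 in forebrain NC cells of each embryo and in the 34 brain HC cells (rows). Dark red, 6 or more UMIs, covers 21 of 30 cells for Dlx2 in E11.5 embryo 2 and 5 of 30 in embryo 1, and is missing in HC cells, where the pale class of 1 to 5 UMIs remains.

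A cell was called Dlx-positive when 2 or more of the 4 Dlx members were expressed. That held for 0 of 88 forebrain NC cells at E9.5, 4 of 9 and 10 of 27 at E10.5, and 16 of 30 and 22 of 30 at E11.5, a share at E11.5 of 63.3% ± 14.1 (SD, n = 2 embryos). With 6 or more UMIs asked of each gene, the E11.5 counts became 3 of 30 cells (exact 95% interval 2.11 to 26.5%) and 21 of 30 (70.0%, interval 50.6 to 85.3%), and these intervals cover counting error only. The E10.5 counts stayed at 4 of 9 and 10 of 27 cells, and 0 of 185 hindbrain NC cells had 2 Dlx genes at that limit. The E11.5 embryos thus differed far more at the stricter limit than at the looser one.

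Within the cells that had a gene at 6 or more UMIs, levels were high. In E11.5 embryo 2 the median was 932 TPM for Gad2 in 16 cells, 544 TPM for Dlx2 in 21, 351 TPM for Dlx1 in 20, 345 TPM for Dlx5 in 17, 128 TPM for Gad1 in 8 and 86.3 TPM for Dlx6 in 10. In hindbrain the Gad2 cells of E11.5 embryo 2 had a median of 72.7 TPM in 5 cells, and those of embryo 1 had 351 TPM in 2. At E9.5 a small number of forebrain cells held Dlx2 and no other Dlx member at that limit, 2 cells of 45 in embryo 1 and 6 of 43 in embryo 2, with medians of 42.5 and 14.8 TPM.

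The 4 Dlx genes were found in largely the same cells. Among 96 forebrain NC cells of E10.5 and E11.5, Dlx2 had 6 or more UMIs in 41, Dlx1 in 33, Dlx5 in 31 and Dlx6 in 15. Dlx2 was present in 31 of the 33 Dlx1 cells and in 29 of the 31 Dlx5 cells, and Dlx5 in 14 of the 15 Dlx6 cells. Dlx5, on another chromosome than Dlx1, was present in 26 of the 33 Dlx1 cells.

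The GABA genes lay within these cells. Gad2 had 6 or more UMIs in 27 cells, 25 of them with Dlx2 and 24 with Dlx5, and all 14 Gad1 cells held Gad2, Dlx2 and Dlx5. Cells with 4 Dlx genes held a GABA gene in 12 of 13 cases, those with 3 in 9 of 12, those with 2 in 6 of 13, those with 1 in 0 of 6, and those with none in 1 of 52. These counts pool embryos of different makeup, E11.5 embryo 2 giving 10 of the 13 cells with all 4, and within E10.5 embryo 2 a GABA gene was present in 3 of 3 cells with 2 Dlx genes, 3 of 5 with 3 and 2 of 2 with 4. A gene with many UMIs in a deep cell passes the limit more readily, and the part of depth in these counts was not tested.

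**Figure D3:**
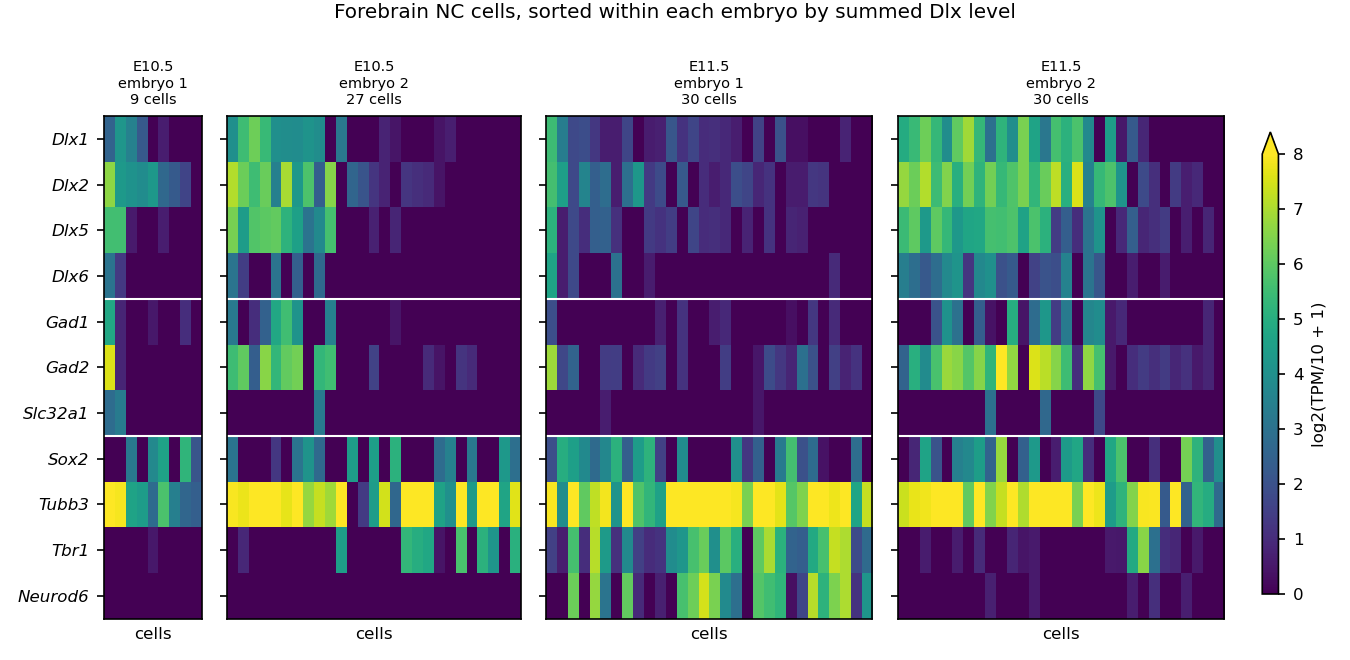
Each column is 1 forebrain NC cell of E10.5 or E11.5, sorted within its embryo by summed Dlx level, each row a gene, and colour gives log2(TPM/10 + 1) from 0 to 8 and above. Bright Dlx and Gad2 entries fill most of E11.5 embryo 2, whose 30 cells include 21 with 6 or more Dlx2 UMIs, whereas most cells of embryo 1 have dim Dlx entries and many have bright Tbr1 and Neurod6.

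Dlx2 cells without a GABA gene had higher levels of progenitor genes than those with one, and lower levels of neuron genes, as a description of few cells. The lists were progenitor genes (Sox2, Nes, Vim, Hes1, Hes5, Id3, Fabp7 and Mki67) and neuron genes (Tubb3, Dcx, Stmn2, Map2, Elavl3, Elavl4, Gap43 and Ina). In E11.5 embryo 2 the mean level of the progenitor list was 3.13 in the 5 Dlx2 cells without a GABA gene and 1.73 in the 16 with one, and that of the neuron list 2.64 and 4.37. In E10.5 embryo 1 the progenitor list was at 3.78 in 4 cells and 0.98 in 2, and the neuron list at 1.52 and 4.14. The order was the same in E11.5 embryo 1 (4.32 and 2.16 for the progenitor list, 4 cells against 1) and in E10.5 embryo 2 (2.24 and 1.97, 2 cells against 7). In all 4 embryos the Dlx2 cells without a GABA gene were the deeper ones by median UMIs, and the part of depth was not tested.

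Of the NC cells of E10.5 and E11.5 with 6 or more UMIs of any GABA gene, 28 were in forebrain and 13 in hindbrain. A Dlx gene at the same limit was present in 27 of the 28 forebrain cells, with 2 of 2, 8 of 8, 1 of 2 and 16 of 16 in the 4 embryos. It was present in 0 of the 13 hindbrain cells (0 of 6, 0 of 2 and 0 of 5 in the 3 embryos that had such cells). This allows a share of up to about 23.1%, an approximate limit that covers counting error only and takes cells as independent. Among the other 97 hindbrain NC cells 1 held a Dlx gene (Dlx6), so the 0 is that of hindbrain NC cells as a whole and not particular to those with a GABA gene, and no test was made.

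Of the 16 listed genes of the hindbrain and spinal inhibitory lineage, 5 had 6 or more UMIs in a larger share of the hindbrain GABA cells than of the other hindbrain NC cells, 5 in a smaller share and 6 in an equal share, and 9 were at that limit in none of the 13. Those with values here were picked after their values were seen. Lhx5 had 6 or more UMIs in 11 of the 13 hindbrain GABA cells and in 17 of the 97 other hindbrain NC cells, Lhx1 in 10 and 24, and Pax2, a paired-box factor, in 6 and 3, whereas Tfap2b had it in 4 and 36. Lhx5, Lhx1 and Pax2, known from inhibitory neurons of hindbrain and spinal cord, were at that limit in none of the 28 forebrain GABA cells. Of the 17 ventral forebrain factors, 11 reached the limit in a larger share of the 28 forebrain GABA cells than of the 68 others, 5 in a smaller share and 1 in an equal share. Six3 had it in 18 of 28 against 8 of 68, Isl1 in 15 against 6 and Lhx6, a factor of the medial ganglionic eminence, in 8 against 1, whereas Meis2 had it in 14 against 40. The Dlx cells with Lhx6 all came from E11.5 embryo 2. These are counts of cells from few embryos, with no test.

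**Figure D4:**
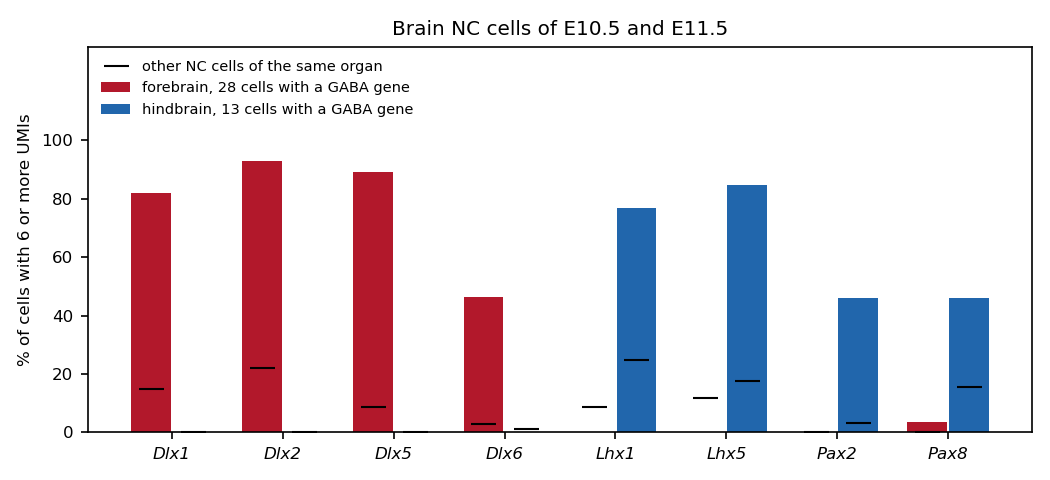
Bars give the share of cells (vertical axis, %) with 6 or more UMIs of the gene named below, among the 28 forebrain (red) and 13 hindbrain (blue) NC cells of E10.5 and E11.5 that held a GABA gene, and black dashes give the same share in the other NC cells of that organ. The red bars stand over the 4 Dlx genes, 26 of 28 cells for Dlx2, and the blue bars over Lhx1, Lhx5, Pax2 and Pax8, genes picked after their values were seen, 11 of 13 cells for Lhx5.

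The difference between the E11.5 forebrain embryos went with another lineage. The glutamatergic genes Neurod6, Tbr1 and Eomes had mean levels of 3.53, 3.88 and 3.23 in embryo 1 and of 0.12, 0.73 and 0.78 in embryo 2, and Lhx6 had 0.11 and 1.16. Over the 96 cells, Tbr1 had 6 or more UMIs in 2 of the 38 cells with 2 or more Dlx genes at that limit and in 29 of the 58 others. The vesicular glutamate transporter gene Slc17a6 was found in 2 and 28 of them, Eomes in 4 and 22, and Neurod6 in 1 and 18. Isl1 showed the opposite, in 20 of the 38 Dlx cells and 1 of the 58 others. These counts pool embryos of different makeup, and all Neurod6 cells came from E11.5 embryo 1. Within that embryo Eomes was in 2 of 3 Dlx cells and 13 of 27 others, and within E11.5 embryo 2 in 2 of 21 and 1 of 9. Tbr1 was in 1 of 3 and 19 of 27, and in 1 of 21 and 2 of 9. Within E10.5 embryo 2 both were in 0 of 10 Dlx cells and 8 of 17 others. Which part of the forebrain each cell came from is not given, so the makeup of the sample and the level per cell cannot be told apart in the embryo means.

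Of the pathway lists, 0 of 17 ventral forebrain factors were called between E9.5 and E11.5 in forebrain NC cells (median difference 0.43, against -0.08 over all genes), and 0 of 14 tested genes of GABA handling (median 0.12), by limma at the same limits. Of 8 neuron genes, 6 were called higher, with Tubb3 at 4.78 (SE 0.61, limma adjusted p = 0.000738), and 3 of 12 glutamatergic genes, with Tbr1 at 2.29 (SE 0.70, limma adjusted p = 0.0415). Between the organs over the 3 days, the ventral factor Six3, an early gene of the anterior forebrain, was called higher in forebrain (1.60, limma adjusted p = 0.0173), and the ventral factor Ebf1 was called lower, as were 0.458% of all genes.

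Blood genes differed between days in forebrain NC cells. The summed level of 6 blood markers was 2.18 and 5.61 in forebrain NC cells at E9.5 and 12.4 to 24.2 later, with 2 of the 5 tested called higher (Hbb-y and Hbb-bh1) and 0 to 2 of the 6 at 0 in an embryo. In the hindbrain NC cells of E11.5, with Dlx levels of at most 0.13, the sum was 18.2 and 19.5, and in those of E9.5 it was 2.05 and 18.5, so that 1 E9.5 hindbrain embryo was as high as the later ones. The part of blood RNA in the Dlx and GABA results was not tested.

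The genes whose pattern across cells was most like the mean of the 4 Dlx members were ranked by the lower of the correlations in the 2 E11.5 embryos (Pearson's r over 30 forebrain NC cells each, 9224 genes, a description in cells that share a library and differ in depth). Dlx6os1, an antisense gene that spans Dlx6 and shares no exon base with it, came first outside the members (0.71), followed by Six3 (0.53), Arl4d (0.51), Gm14204 (0.50), Slc18a2 (0.48), Pou3f4 (0.45), Whsc1 (0.44), Isl1 (0.42), Meis1 (0.41) and 2010315B03Rik (0.39). Gad2 was at 0.69 and Gad1 at 0.41. In E11.5 embryo 1 only 3 of 30 cells had 2 or more Dlx genes at 6 or more UMIs. Not all of the ranked genes kept their correlation in E10.5 embryos 1 and 2. It was 0.84 and 0.86 there for Dlx6os1 and 0.51 and 0.79 for Isl1, but -0.14 and 0.86 for Six3 and -0.49 and 0.05 for Whsc1. Dlx6os1 was also called higher in forebrain over the 3 days (1.20, SE 0.26, limma adjusted p = 0.0366) and from E9.5 to E11.5 (1.97, SE 0.46, limma adjusted p = 0.0118).

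Outside the brain, Dlx2 was a gene of skin epithelium. Its mean level in skin Epi cells was 1.72 and 1.72 at E9.5 (embryos 2 and 3), 3.26 and 3.28 at E10.5, and 1.76 and 1.67 at E11.5. In the Epi cells of the other organs the highest embryo mean was 0.22, in intestine. All 6 skin embryos were therefore above every other one, and the 2 of E10.5 were above the other 4, a pattern seen after the fact and not tested.

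Dlx2 was called higher in skin epithelium than in that of the other organs (2.22, SE 0.14, limma adjusted p = 1.70e-17, 15616 genes), as 1 of the 3 Dlx members tested, against 2.79% of all genes. Dlx6 did not pass the filter on low values and had 0 UMIs in skin Epi cells. Dlx5 (0.29, limma adjusted p = 0.0215) and the non-member Dlx3, an ectodermal gene of the same family (0.91, limma adjusted p = 1.04e-09), passed the test with differences under the size asked, while Dlx1 did not (0.05, limma adjusted p = 0.151). The skin genes Trp63 (2.70, limma adjusted p = 9.90e-26) and Krt14 (1.75, limma adjusted p = 6.99e-08) were called in the same comparison. E9.5 embryos 2 and 3, sequenced on HiSeq 2500 and HiSeq 4000, had the same skin Epi level of Dlx2. This is 1 embryo per platform, with 7 and 10 cells and median depths of 949896 and 481814 UMIs. An effect of the platform was not tested. The SE of the Dlx2 difference pools all groups of the fit, most of them near 0. It therefore understates the spread of the skin Epi embryos, which lay between 1.67 and 3.28.

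In skin, Dlx2 was also called higher in Epi than in Mes cells (2.03, SE 0.17, limma adjusted p = 7.67e-13), as 1 of 3 members tested, against 2.32% of all genes. Single cells gave the same picture as the means: 41 of 79 skin Epi cells had 6 or more Dlx2 UMIs, 33 of which held Trp63, as did 63 of all 79 cells, and 13 Dlx3. Dlx3 had 23 such cells and Dlx5 had 7, all 7 with Dlx2 or Dlx3.

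In mesenchyme no member was called between skin and the other organs, against 1.21% of all genes called higher. Dlx5, known from bone-forming mesenchyme, passed the limma test (0.43, SE 0.10, adjusted p = 0.00225) with a difference under the size asked, which was 0.24 without E11.5 embryo 1 (limma adjusted p = 0.0410). Its skin Mes levels were 1.34 and 0.84 in the E11.5 embryos (10 and 4 cells) and 0 to 0.30 in the 4 earlier ones. In the Mes cells of the other organs it reached 0.21 in 1 embryo of intestine, and every median was 0. Dlx2 in skin Mes cells was between 0.004 and 0.70 (0.18, limma adjusted p = 0.715), Dlx1 at most 0.01 and Dlx6 at most 0.01.

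**Figure D5:**
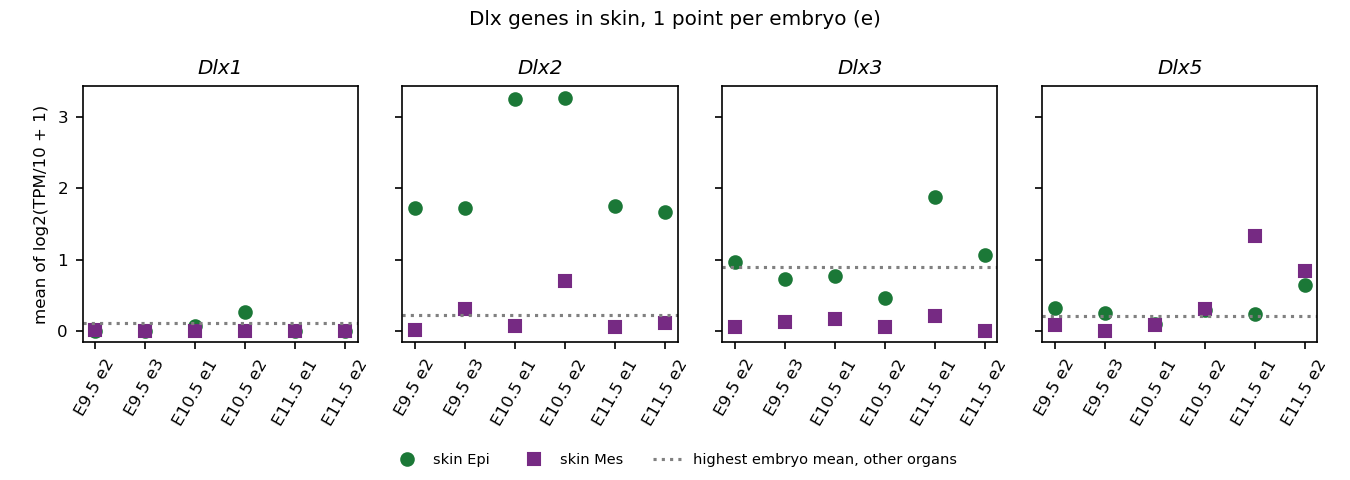
Mean level of Dlx1, Dlx2, Dlx3 and Dlx5 in skin, on log2(TPM/10 + 1), for each embryo (horizontal axis, day and embryo number), green circles for Epi and purple squares for Mes cells, with a dotted line at the highest embryo mean of Epi or Mes cells in lung, liver and intestine. Dlx2 in Epi cells lies between 1.67 and 3.28, far above its line at 0.22, and the purple Dlx5 points are highest in the E11.5 embryos, at 1.34 and 0.84, above a line at 0.21.

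Of the 14 craniofacial and limb mesenchyme genes, 7 were called higher and 2 lower in skin mesenchyme than in that of the other organs (median difference 0.68, against -0.01 over all genes), where 0.634% of all genes were called lower. Msx2 (4.54, limma adjusted p = 4.29e-15) and Prrx1 (4.10, limma adjusted p = 1.35e-19) led, and Tbx5 and Hand2 were lower. Across the 1815 cells in one of the 4 major groups, Dlx2 had 6 or more UMIs in 118, of which 49 were forebrain NC, 42 skin epithelial, 10 lung mesoderm-derived, 6 skin mesoderm-derived and 11 elsewhere. Gad2 reached that limit in 44 cells, 28 in forebrain and 12 in hindbrain NC, and Slc32a1 in 6, all of them brain NC cells.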

How the data were processed

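Single-cell libraries with poly(A) capture, cell barcodes and UMIs were sequenced by the authors. The submitters' processing notes name CASAVA 1.8, TopHat2 2.0.12, HTSeq and mm10. The deposited values are UMIs per 1000000 UMIs of a cell, a CPM that the authors call TPM. Multiplying by the cell's UMI total gave whole UMIs in 100% of values (tolerance 0.05). Of 1916 cells, 1851 had 2000 or more genes and 1819 were kept in the study's cell annotation, which supplied the cell groups. Doublets were not treated here, and cell barcodes are not in the headers, so shared barcodes could not be counted.

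Embryo means over at least 3 cells were fitted with limma 3.58.1 (R 4.3.3) on log2(TPM/10 + 1), in 1 fit of 12 brain means (6 residual degrees of freedom) and 1 of 47 skin, lung, liver and intestine means (39). The test took genes expressed in 3 or more of those cells. No embryo was imputed. Alternatives were edgeR 4.0.16 on summed UMIs (quasi-likelihood), no filter, another pseudocount, thinning to 100000 UMIs (310 of 369 brain and 573 of 641 other cells are deep enough), leaving out each embryo, embryonic day as a covariate, HiSeq 4000 embryos only, and at least 5 cells per mean in skin, and an embryo block. Forebrain and hindbrain of an embryo come from 1 animal by the labels. Their deviations over genes correlated at 0.36 (E9.5), -0.22 (E10.5) and -0.11 (E11.5), and the block changed 0 of 47 member calls. Scripts were tested on simulated data.

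The members are those named for this work. The lists and named genes follow a written rule: the members, other Dlx genes and their antisense partners, listed pathway genes, and the 10 genes most like the Dlx members. Members and lists were chosen with earlier results of these data known. Embryos were the replicates, and each limma p-value sets a difference against a spread between embryos pooled over all groups of its fit. As stated above, this pooled spread understates that of the Dlx genes in the latest forebrain embryos and of Dlx2 in skin Epi cells. On the later days both embryos of a day shared a sample per organ, so their spread holds no difference between samples. Some genes of the lists are not reported here.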

Additional observations from a re-analysis of the deposited data

Results flagged for a closer look

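Dlx1 and Dlx2 had 6 or more UMIs in 12 and 19 cells outside brain NC cells, skin and the Epi and Mes cells compared above, 20 cells in all, of which mesoderm-derived lung cells held 7 with Dlx1 and 9 with Dlx2. Of the 20, 11 also had 6 or more UMIs of Sox10, a neural crest gene (55%), against 1.44% of the remaining cells outside those sets (11 cells). In the lung sample of E9.5 embryo 2, 7 of 40 mesoderm-derived cells held Dlx1 or Dlx2 at that limit, 1 of them among the Mes cells. Sox10 was present in 6 of these 7 and in 0 of the other 33, and Foxd3, another neural crest gene, in 3 and 0, whereas Col3a1 was present in 2 of the 7 and 32 of the 33, and Tbx5 in 1 and 27. The highest Dlx2 value of these lung cells was 329 UMIs (336 TPM).

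In 3 of 7 groups of skin embryos examined, 1 embryo stood apart by the gap to the next embryo relative to the range. Where all other embryos are at 0, a single UMI always meets this rule, so no chance rate applies. The groups were Dlx1 in skin Epi cells, with a highest mean of 0.26 in E10.5 embryo 2, where 1 cell held 11 UMIs, and Dlx1 and Dlx6 in skin Mes cells, with highest means of 0.0076 and 0.0056 in E9.5 embryo 2, where no cell held more than 1 UMI.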

How the results depend on the processing

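Between forebrain and hindbrain over the 3 days, where 3 members were called, 0 were called with every gene tested, with HiSeq 4000 embryos alone, with embryonic day as a covariate and, an alternative added after seeing the data, with values of at most 5 UMIs set to 0, 1 after thinning to 100000 UMIs, and 0 to 4 when each embryo was left out. At E11.5, where 0 were called, log2(TPM + 1) gave 3, edgeR 2 and leaving out an embryo 0 to 4. From E9.5 to E11.5 in forebrain, where 4 were called, testing every gene gave 1, setting values of at most 5 UMIs to 0 gave 0, leaving out an embryo gave 0 to 6, log2(TPM + 1) and edgeR each gave 6 (with Dlx6 and Gad1), and thinning gave 4, with Dlx6 in place of Gad2. Where an embryo of a day is left out, its groups hold 1 embryo, assumed to vary like the others. For the difference between the organs in that step, leaving out an embryo gave 0 to 2. In skin mesenchyme, where 0 were called, log2(TPM + 1) gave 1 and edgeR 2, and in skin epithelium, where 1 was called, edgeR gave 3. Testing every gene raises the number of tests from 14200 to 17063, and the cause of the other shifts was not tested. The Dlx-positive share at E11.5 (63.3%) was 81.7% with 1 expressed gene asked, 80.0% with 2 genes at 1 UMI or more and 40.0% with 2 genes at 6 UMIs or more (added after seeing the data).

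Of 581 values of single genes under an alternative, 511 kept their side of the threshold, 46 lost the call, 24 gained it and 0 reversed. A reversal was looked for only where the main or the alternative value was called, so uncalled values may have changed direction. The replicate block by embryo changed no member's call, 3 called over the 3 days and 4 from E9.5 to E11.5 as before. Dlx2 in skin epithelium was called under every alternative run. With 2 embryos a day and 9 to 45 cells each, Slc32a1 and Dlx6 were close to the detection limit.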
